A study of Mus musculus with 2 samples.

Results

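Nuclear genes for the enzyme complexes of oxidative phosphorylation were followed through the cell classes of Balb/c mouse brain. They were taken by symbol: every gene beginning with Nduf, Uqcr or Atp5, the genes Sdha to Sdhd, and every gene beginning with Cox4, Cox5, Cox6, Cox7 or Cox8, with 8 symbols marked -ps dropped as pseudogenes. This gave 92 of the 29217 genes listed in either library. Of these, 36 were assigned to complex I, 8 to its assembly, 4 to complex II, 8 to complex III, 20 to complex IV and 16 to complex V. Apart from the exceptions below, assignment followed the symbol. Atp5s was thus counted with complex V without a check that its protein is a subunit. All 92 were protein-coding genes in the GENCODE M21 annotation of GRCm38, spread over 19 chromosomes with 3 of them on X. Ndufa4 and Ndufa4l2 were counted with complex IV, where the Ndufa4 protein is known to sit, although their symbols carry the prefix of complex I.

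Oxidative phosphorylation takes place in the inner mitochondrial membrane. Complexes I and II pass electrons from NADH and succinate to ubiquinone, complex III passes them on to cytochrome c and complex IV to oxygen, and complex V uses the proton gradient that complexes I, III and IV build up to make ATP. Most subunits are encoded in the nucleus and the remainder, including the catalytic core of complex IV, in mitochondrial DNA, except for complex II, which is wholly nuclear. Several complex IV subunits exist as isoforms from separate genes that are known for use in muscle, lung, testis or low oxygen. In brain, neurons depend strongly on this pathway, while astrocytes and activated macrophages are known for high glycolysis.

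The single-cell RNA libraries came from brain tissue in a model of breast cancer metastasis, 1 library per group, both from Balb/c animals and both annotated as triple-negative. The groups are named here by their titles, control and positive, also where paired values carry these words in brackets. The treatment field of the records states the opposite of the titles: metastasis of the mouse mammary carcinoma line 4T1 is entered for the titled control, and none for the titled positive library. No direction with or without metastasis was therefore drawn. The records used here give no age or sex and do not say how many animals each library holds. The libraries held 10417 and 10842 barcodes (control, positive), with 55657687 and 98141261 unique molecular identifiers (UMIs, counts of single captured RNA molecules) and a median of 4230 and 7383.5 UMIs per barcode. They shared 149 barcode sequences, which were kept in both.

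Cells were sorted into classes by clustering without the 92 genes or the mitochondrially encoded genes, followed by naming from marker genes, so each class name carries "-like". Oligodendrocyte-like cells numbered 3583 (control) and 471 (positive), microglia-like cells 2269 and 635, monocyte or macrophage-like cells 351 and 2251, endothelial cell-like cells 598 and 90, fibroblast-like cells 96 and 70, and T cell-like cells 62 and 189. These 6 classes reached 50 cells in both libraries and could be set against each other. The titled control library alone had enough astrocyte-like (1912), ependymal cell-like (161), smooth muscle cell-like (132) and pericyte-like cells (88), and the titled positive library alone enough carcinoma-like (5818), neutrophil-like (197) and NK cell-like cells (67). The carcinoma-like class, defined by epithelial genes, held 0 of 9886 kept cells of the library titled control, which allows a share of up to 0.0373%, and this goes against the treatment field. All markers of a class were detected in it, except that Klra8 and Klra4 were at 0 in NK cell-like cells. The microglia-like class differed in its markers between the libraries: its own 10 summed to 32132 CPM (control; CPM is the UMI count scaled to the class total) and 5050.1 CPM (positive), and 10 monocyte or macrophage markers in it to 661 and 3281 CPM. In oligodendrocyte-like cells the 10 own markers summed to 110017 and 53738 CPM. The 10 endothelial markers in that class summed to 165 CPM (control) and 6377 CPM (positive), of which Ly6c1 alone made up 80.2 and 6358 CPM; the other 9 were each lower in the titled positive library, with Tek at 0. The part of these markers in the results was not tested.

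Promoters are shown first, and whether their sequence bears on the levels reported below was not tested. The RefSeq promoter table for GRCm38.p6 held 74 of the 92 members. Members without an entry included Atp5a1, Atp5f1, Atp5s, Cox4i1, Cox4i2, Cox6a2, Cox6c, Cox8c, Ndufa2, Ndufa4l2, Ndufaf6, Ndufb9, Ndufs1, Sdhc, Uqcrb, Uqcrc2 and Uqcrq. The 250 bases before the RefSeq start were searched on both strands for letters bound by factors known for mitochondrial genes: GCGCNTGCG for NRF1 (nuclear respiratory factor 1), ACCGGAAG for the ETS family that includes GABPA, TCAAGGTCA for the estrogen-related receptors and AAGATGGCG for YY1. The sequences below, written 5′ to 3′ on the gene's strand, were chosen after the search, 1 each from complexes I, II, IV and V, because each holds at least 1 match and, in the first case, because the gene was lower in every class compared. Capitals mark the matches, which may lie on either strand. They are Ndufb4 (an accessory subunit of complex I) at chr16:37654369-37654618, Sdhd (a membrane anchor of complex II) at chr9:50603850-50604099, Cox6a1 (a complex IV subunit) at chr5:115348959-115349208 and Atp5g2 (a gene for the c-ring of complex V) at chr15:102671048-102671297, all on the minus strand of the chromosome. In the GENCODE M21 annotation the Atp5g2 gene spans 102662864 to 102672352, so all its bases shown lie inside the gene. Ndufb4 reaches 37654453 there and Cox6a1 115348981, so the bases shown nearest their RefSeq starts also lie inside the genes. For Ndufb4 these bases hold every marked match but the first. The Sdhd gene reaches 50603812, outside the bases shown. How many other promoters searched overlap their gene was not computed.
Ndufb4: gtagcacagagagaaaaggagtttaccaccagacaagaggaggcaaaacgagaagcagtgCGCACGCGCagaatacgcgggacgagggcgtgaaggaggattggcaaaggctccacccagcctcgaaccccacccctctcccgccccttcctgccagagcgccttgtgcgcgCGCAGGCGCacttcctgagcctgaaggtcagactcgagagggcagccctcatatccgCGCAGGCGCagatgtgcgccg
Sdhd: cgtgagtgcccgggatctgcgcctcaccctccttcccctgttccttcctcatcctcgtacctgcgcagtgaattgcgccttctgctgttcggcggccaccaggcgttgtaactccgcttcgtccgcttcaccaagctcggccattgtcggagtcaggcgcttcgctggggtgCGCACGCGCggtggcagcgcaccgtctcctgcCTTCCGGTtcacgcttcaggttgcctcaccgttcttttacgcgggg
Cox6a1: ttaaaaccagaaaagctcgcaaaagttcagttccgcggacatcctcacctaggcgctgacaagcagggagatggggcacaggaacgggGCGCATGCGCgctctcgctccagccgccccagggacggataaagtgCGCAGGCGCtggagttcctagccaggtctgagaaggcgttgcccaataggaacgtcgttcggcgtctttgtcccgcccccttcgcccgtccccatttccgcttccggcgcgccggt
Atp5g2: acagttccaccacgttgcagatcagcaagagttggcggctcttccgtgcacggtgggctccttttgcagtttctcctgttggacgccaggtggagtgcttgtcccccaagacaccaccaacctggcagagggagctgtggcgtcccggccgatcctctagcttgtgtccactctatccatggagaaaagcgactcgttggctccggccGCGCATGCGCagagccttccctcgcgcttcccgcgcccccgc
The NRF1 letters occurred in 17 of the 74 member promoters (23.0%) and in 5.88% of the 27025 genes of the table, with promoters of the same length. The stricter form GCGCATGCG, which the first search also counts, occurred in 7 members (9.46%) and 1.64% of all genes of the table. ACCGGAAG occurred in 4 members (5.41%) against 1.95% of all genes, and TCAAGGTCA and AAGATGGCG in 1 member each (1.35%) against 0.422% and 0.710%. At least 1 of the 4 marked motifs was found in 22 members (29.7%) and 8.49% of all genes. Letters common to many promoters were nearer the background: CCAAT in 44.6% of members and 37.5% of all, GGGCGG in 39.2% and 35.4%, and ACGTG, the core of the hypoxia response element, in 18.9% and 18.5%. The background was all genes of the table, not matched for expression or base content. A match describes these letters only, and binding was not measured.

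Levels were ranked over classes with at least 50 cells in a library. In the titled control library the members took up between 1.44% and 4.32% of all UMIs of a class. The share was 4.32% in smooth muscle cell-like cells, 3.53% in fibroblast-like, 3.42% in astrocyte-like, 3.31% in pericyte-like, 3.12% in endothelial cell-like, 3.07% in ependymal cell-like, 2.87% in oligodendrocyte-like, 2.73% in T cell-like cells and 2.26% in the monocyte or macrophage-like class. Microglia-like cells were at the bottom, with 1.44%. The separation was visible cell by cell: the middle quartiles ran from 1.18 to 1.62% in microglia-like and from 2.63 to 3.12% in oligodendrocyte-like cells. Of 79 members with at least 100 UMIs in their highest class, 66 had their lowest level in microglia-like cells, and 38 had their highest in smooth muscle cell-like cells. The same shares over all genes were not computed, so these counts describe the members only. Between the top classes the order rests on 1 library and has no replicate check.

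The low level of microglia-like cells ran through all complexes. Complex I summed to 4839 CPM in microglia-like and 10430.2 CPM in oligodendrocyte-like cells of the titled control library, complex II to 482 and 776 CPM, complex III to 1610.3 and 3107 CPM, complex IV to 3955 and 7938 CPM, and complex V to 3297 and 6039.6 CPM. Microglia-like over oligodendrocyte-like, the member sums stood at a ratio of 0.503. Of 88 members tested, 69 were at least 1.5-fold lower, against a background of 31.5% of all genes tested, and 5 at least 1.5-fold higher, against 37.9%. Relative to astrocyte-like cells, 84 of 88 were at least 1.5-fold lower (background 36.3%) and 2 at least 1.5-fold higher (background 30%). Astrocyte-like over oligodendrocyte-like cells, 20 of 88 were at least 1.5-fold higher (background 37.7%) and 0 at least 1.5-fold lower (background 19.8%), with sums at 1.19-fold. Smooth muscle cell-like cells stood at the other end: relative to endothelial cell-like cells, 23 of 84 members were at least 1.5-fold higher (background 16.2%) and 1 at least 1.5-fold lower (background 31.1%), and the sums stood at 1.39-fold. Pericyte-like cells were nearer to endothelial cell-like cells, with 7 of 84 members at least 1.5-fold higher (background 23.8%) and 5 at least 1.5-fold lower (background 26.1%). Oligodendrocyte markers in pericyte-like cells stood at 42.7% of their oligodendrocyte-like level, with a free RNA estimate of 83.9%. The estimate takes every oligodendrocyte marker UMI in the class as free RNA. In a pericyte-like cluster with 24 titled control cells, oligodendrocyte was the next class by mean log2 marker ratio (3.82, beside 5.39 for pericyte). The part of that RNA and of that cluster in this comparison and in the pericyte-like share of UMIs was not tested.

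In the titled positive library the spread between classes was narrower, but over a different set of classes. Smooth muscle cell-like, astrocyte-like, pericyte-like and ependymal cell-like cells were too few to be ranked there. Carcinoma-like cells carried 3.26% of their UMIs in the members, T cell-like cells 3.10%, NK cell-like 3.07%, endothelial cell-like 2.80%, fibroblast-like 2.73%, monocyte or macrophage-like 2.67%, microglia-like 2.37%, neutrophil-like 2.33% and oligodendrocyte-like 1.99%. Oligodendrocyte-like cells now held the lowest level for 39 of 72 members with at least 100 UMIs in their highest class. Neutrophil-like cells held it for 15 and microglia-like cells for 10, and the same shares over all genes were not computed. By the median of single cells, neutrophil-like cells lay below oligodendrocyte-like cells, at 1.78% (quartiles 1.33 and 2.78%) and 1.96% (1.69 and 2.28%). Carcinoma-like over monocyte or macrophage-like cells, the best filled classes of that library, 65 of 88 members had a ratio above 1. The median log2 ratio of the 88 members was 0.26, below the 0.36 of all genes tested. At least 1.5-fold higher were 14, a share below the background of 41.3%, and 6 were at least 1.5-fold lower (background 21.7%). The member sums of this pair stood at 1.22-fold. Over oligodendrocyte-like cells, 44 of 86 members were at least 1.5-fold higher in carcinoma-like cells (background 44.1%) and 3 at least 1.5-fold lower (background 23.8%), with sums at 1.64-fold. Microglia-like over monocyte or macrophage-like cells, 4 of 88 were at least 1.5-fold higher (background 13.8%) and 3 at least 1.5-fold lower (background 12.3%), both shares below the background. Markers of other classes were found in the classes of that library. The estimated share of free RNA was 33.5% in carcinoma-like cells by monocyte or macrophage markers. By carcinoma markers it was 47.9%, 50.8% and 53.7% in T cell-like, NK cell-like and neutrophil-like cells. The estimate takes every such marker UMI as RNA of another class, and how much of it a class expresses itself was not tested.

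**Figure D1:**
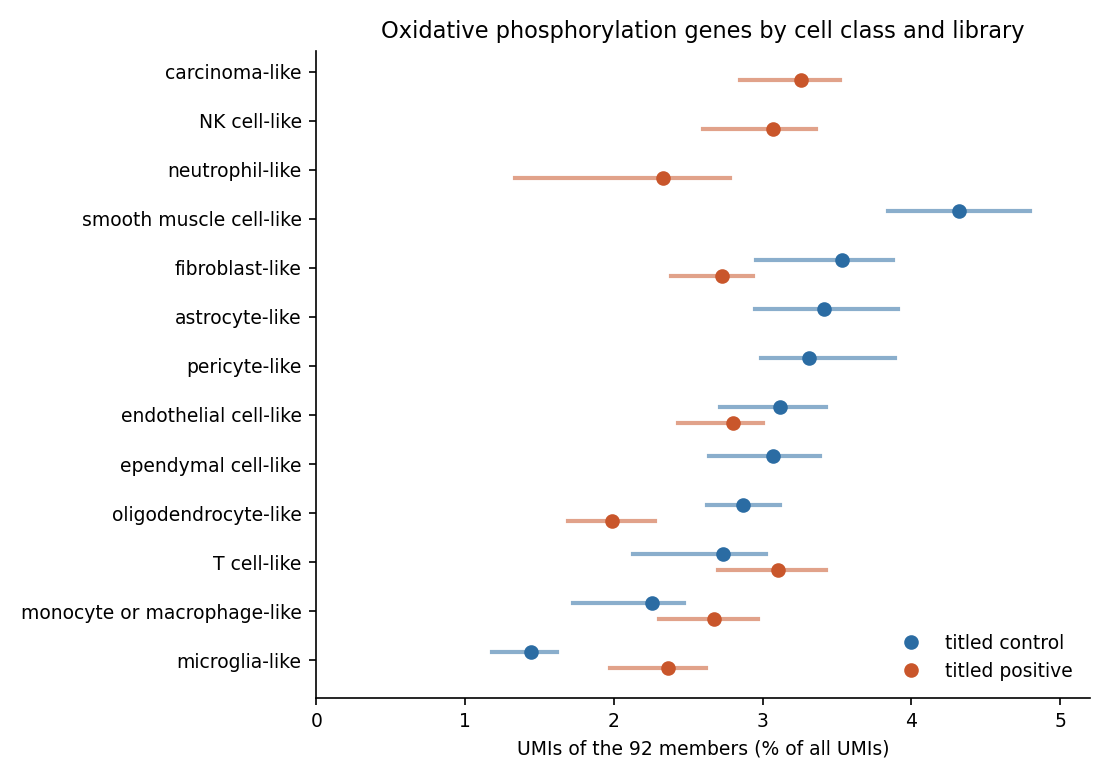
UMIs of the 92 genes as a percent of all UMIs (x axis) for each cell class (y axis) in the titled control and titled positive libraries; points are class sums, and lines show the quartiles of single cells. Microglia-like cells (control) lie lowest at 1.44%, smooth muscle cell-like cells highest at 4.32%, and oligodendrocyte-like and microglia-like cells exchange places between the libraries.

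The complexes did not make up the same part of the member UMIs everywhere. Complex IV supplied 25.1% of the member UMIs in astrocyte-like and 27.4% in microglia-like cells (control), and 31.2% in carcinoma-like and 31.3% in microglia-like cells (positive). Complex I supplied 38.9% in ependymal cell-like cells of the titled control library, which line the ventricles and carry motile cilia, and 30.9% in carcinoma-like cells. These shares compare the same genes between classes, since UMIs were not scaled by gene length.

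Among single members, the sharpest class patterns belonged to the complex IV isoforms. Ndufa4l2 (chr10:127514967-127517154), a paralogue of Ndufa4 known for induction by low oxygen, reached 891 CPM in pericyte-like cells (345 UMIs) and 432 CPM in smooth muscle cell-like cells of the titled control library, while the median of its 10 classes was 4.48 CPM. Cox4i2 (chr2:152754173-152765037), the low-oxygen isoform of Cox4, followed the same order with 483 CPM in pericyte-like and 257 CPM in smooth muscle cell-like cells and a median of 3.87 CPM. Both were thus highest in the classes named for the mural cells of vessels. Cox4i2 made up 29.4% of the UMIs of Cox4i1 and Cox4i2 together in pericyte-like cells (95% interval 25.9 to 33.2%) and 14.8% in smooth muscle cell-like cells (12.6 to 17.3%), against 0.378% in microglia-like cells (0.237 to 0.572%) of the same library. Ndufa4l2 made up 74.2% of the UMIs of Ndufa4 and Ndufa4l2 in pericyte-like cells (69.96 to 78.1%) and 38.0% in smooth muscle cell-like cells (34.2 to 42.0%). The free RNA estimate for pericyte-like cells was 83.9%, and oligodendrocyte-like cells, whose markers gave it, held Ndufa4l2 at 1.97 CPM and Cox4i2 at 1.23 CPM.

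Cox6a2 (chr7:128205435-128206387), known as the heart and skeletal muscle isoform of Cox6a, had its best counted levels in microglia-like cells, where it reached 18.5 CPM (control, 150 UMIs, interval 15.6 to 21.7) and 68.6 CPM (positive, 241 UMIs, 60.2 to 77.8), the latter the highest among classes with at least 50 cells in a library. An unnamed cluster of 2 (control) and 8 cells (positive) also had Cox6a2 among its 10 leading genes. T cell-like cells of the titled control library had 23.4 CPM on 6 UMIs (8.599 to 51.0), and that interval spans the microglia-like value of the same library. Astrocyte-like cells had no UMI of it, which at 3 counts allows up to 0.411 CPM, and carcinoma-like cells had 0.838 CPM. Its share of the Cox6a1 and Cox6a2 UMIs in microglia-like cells was 4.45% (3.78 to 5.197%) and 9.80% (8.66 to 11.05%). In monocyte or macrophage-like cells the order was opposite, with 15.7 CPM (control, 32 UMIs) and 3.25 CPM (positive, 45 UMIs). Microglia markers in that class stood at 23.4% of their microglia-like level in the former library and at 16.7% in the latter, and their part in the Cox6a2 value was not tested.

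Cox6b2, known from testis, was highest in fibroblast-like cells, with 125 CPM (control, 65 UMIs) and 22.3 CPM (positive, 14 UMIs). Ependymal cell-like cells followed with 51.4 CPM. Cox7a1, the muscle isoform of Cox7a, reached 81.3 CPM in ependymal cell-like cells (87 UMIs), where it made up 14.4% of the Cox7a1 and Cox7a2 UMIs (11.7 to 17.5%), and 20.3 CPM in astrocyte-like cells. Cox7b2, Cox8b and Cox8c did not reach 50 UMIs over both libraries in any class compared, and Cox8c was listed in the titled control library alone. These 3 were the only members tested in no class, while 78 were tested in all 6 and 11 in some.

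**Figure D2:**
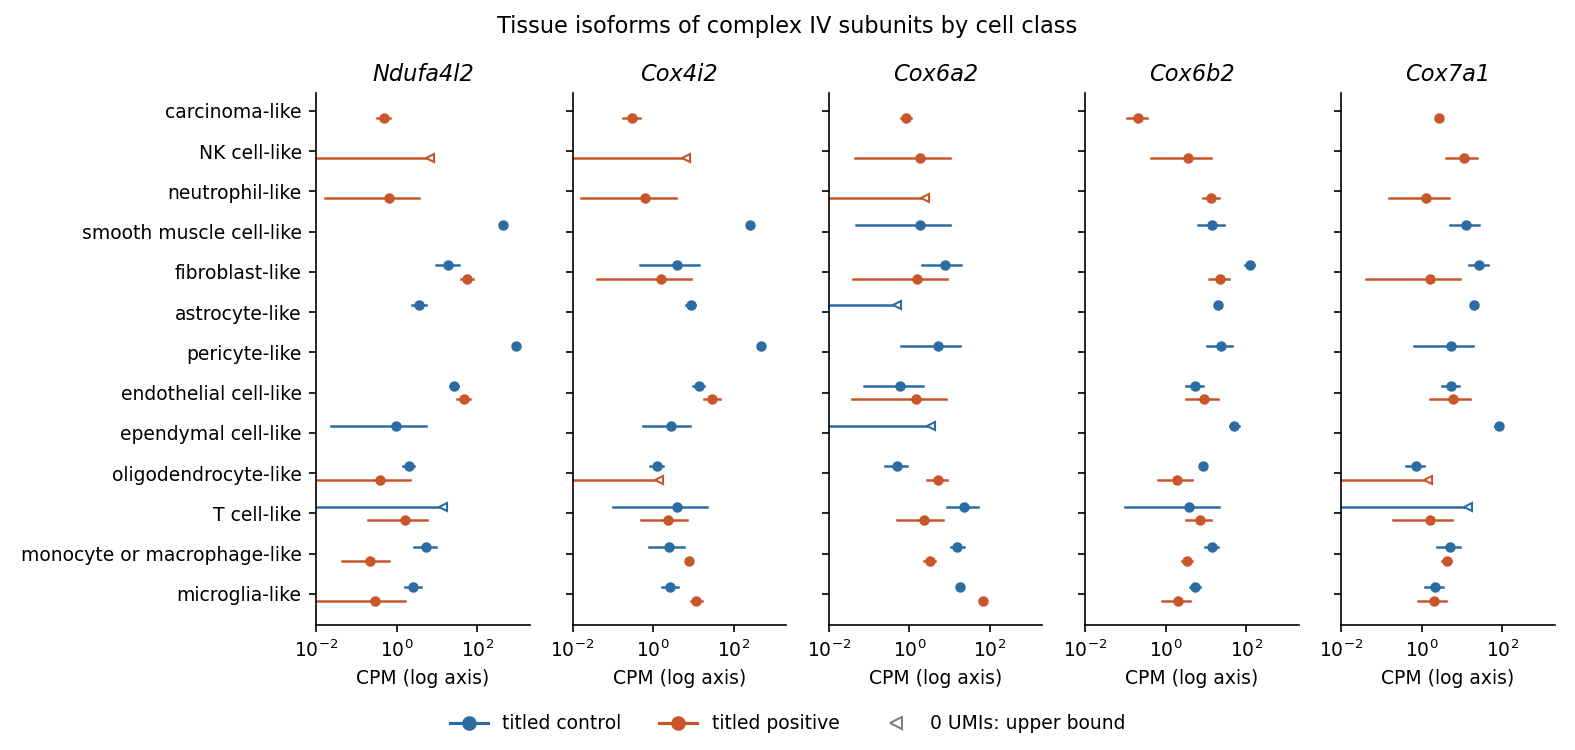
CPM on a log axis (x) of Ndufa4l2, Cox4i2, Cox6a2, Cox6b2 and Cox7a1 in each cell class (y) and library; points are class sums, lines exact Poisson 95% intervals and open triangles the upper bound where no UMI was found. Ndufa4l2 and Cox4i2 peak in pericyte-like and smooth muscle cell-like cells, Cox6a2 in microglia-like cells of the titled positive library, and Cox7a1 in ependymal cell-like cells.

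Members with no isoform role had flatter patterns across the classes of the titled control library. Among those with at least 100 UMIs in the highest class, the complex I assembly factors Ndufaf3 and Ndufaf8 were highest in ependymal cell-like cells, at 207 CPM against a class median of 64.7 and at 193 CPM against 86.8. Ndufb5, an accessory subunit of complex I, was also highest there, at 569 CPM against 259. Sdhc, the other membrane anchor of complex II, and Cox8a, the general Cox8 isoform, were highest in smooth muscle cell-like cells, at 560.2 CPM against 193 and at 2186 CPM against 794. Ndufa8, an accessory subunit of complex I, was highest in endothelial cell-like cells, at 367 CPM against 150.2. Apart from Ndufaf3, these members had their lowest level in microglia-like cells.

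Between the libraries, the members differed in opposite directions in microglia-like and oligodendrocyte-like cells. In microglia-like cells 76 of 87 members tested were higher in the titled positive library and 11 lower, with a median log2 ratio of 0.61, while the median over all 10482 genes tested was -0.35. At least 1.5-fold higher were 46 members, against a background of 16.1% of all genes tested, and at least 1.5-fold lower were 3, against 39.5%. In oligodendrocyte-like cells 83 of 85 members were lower in the titled positive library, with a median log2 ratio of -0.50 against -0.24 for all 11405 genes. None of the 85 was at least 1.5-fold higher (background 15.4%), and 31 were at least 1.5-fold lower (background 30.2%), a share of 36.5%, near the background. With the estimated free RNA subtracted, 53 were at least 1.5-fold lower (62.4%, beside a background of 34.3% after the same subtraction). The counting interval of the single member included 0 for 12 of 87 members in microglia-like and 10 of 85 in oligodendrocyte-like cells. With 1 library per group these differences have no replicate check, and library and group cannot be told apart. The cells compared also lay in different clusters: in the microglia-like class, 2268 of 2269 cells (control) were in 2 clusters (the larger led by P2ry12 and Gpr34), and all 635 (positive) in another (led by Ccl12 and Hcar2). Of the oligodendrocyte-like cells, all 3583 of the titled control library were in 6 clusters filled at least 95% by that library (the largest led by Opalin and Ptgds), and 469 of 471 of the titled positive library in 3 others (the largest led by Serpina3n and Apod).

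The higher levels in microglia-like cells ran through all complexes but not, by the median, through the assembly factors. The median log2 ratio was 0.95 for complex IV (14 of 15 members tested higher), 0.67 for complex V (15 of 16), 0.60 for complex I (34 of 36), 0.56 for complex III (8 of 8) and 0.49 for complex II (3 of 4). For the 8 assembly factors of complex I it was -0.15, with 2 higher and 6 lower. Summed, complex I stood at 4839 CPM (control) and 7403 CPM (positive), and complex IV at 3955 and 7399.7 CPM. In oligodendrocyte-like cells the medians were -0.54, -0.30, -0.48, -0.53 and -0.55 for complexes I to V and -0.16 for the assembly factors. The median of all genes tested was -0.24, and complex II and the assembly factors lay nearest to it. Complex I there summed to 10430.2 and 7055 CPM, and complex IV to 7938 and 5439 CPM.

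**Figure D3:**
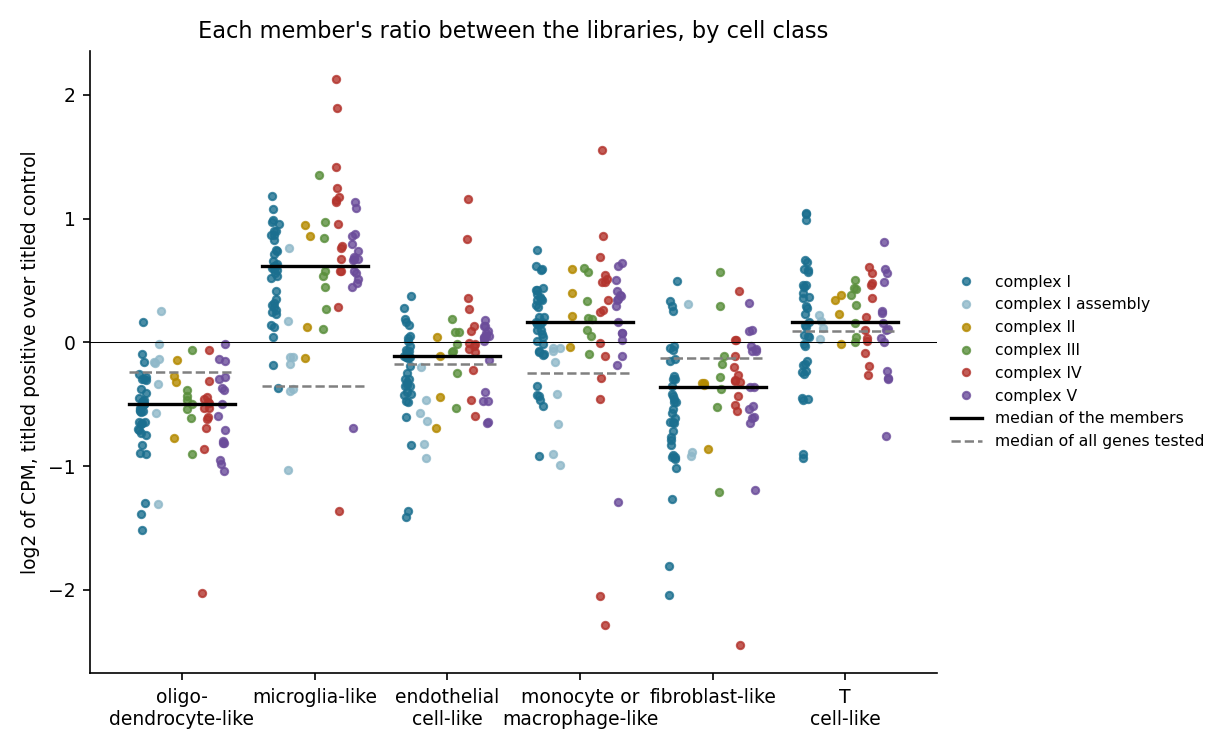
Log2 ratio of CPM, titled positive over titled control (y axis), of every member with at least 50 UMIs over both libraries in 6 cell classes (x axis), coloured by complex; solid bars are the medians of the members and dashed bars the medians of all genes tested. Members lie above the dashed bar in microglia-like cells (0.61 against -0.35) and below it in oligodendrocyte-like cells (-0.50 against -0.24).

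Among members that reached 100 UMIs in either library, Cox6a2 led in microglia-like cells with a log2 ratio of 1.89 (interval 1.59 to 2.20). Cox5a, a nuclear subunit of complex IV, came next with 185 CPM (control) and 495 CPM (positive) (1.42, 1.32 to 1.52). Uqcrq, a small subunit of complex III, stood at 188 and 479 CPM (1.35), Cox7b of complex IV at 160.5 and 380.3 CPM (1.24) and Ndufb9 of complex I at 128 and 291 CPM (1.19). Cox4i1, the general isoform of Cox4, stood at 714 and 1382 CPM (0.95). Subunits of complexes III and IV thus made up 4 of the 5 highest ratios. The lowest ratio belonged to Ndufaf7, a methyltransferase needed to assemble complex I, with 49.1 and 23.9 CPM (-1.03, -1.40 to -0.70). Among the other low members, Ndufaf4, likewise an assembly factor, stood at 37.5 and 28.5 CPM (-0.39), Ndufb4 at 88.4 and 68.3 CPM (-0.37), and Ndufs1, the largest core subunit of complex I, at 48.2 and 42.4 CPM (-0.18, -0.47 to 0.09).

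In oligodendrocyte-like cells, by the same minimum, Cox6b2 had the lowest ratio, with 8.72 CPM (control) and 1.95 CPM (positive) (-2.03), although the latter value rests on 5 UMIs. Complex I subunits and an assembly factor came next. Ndufb2 stood at 150.2 and 52.3 CPM (-1.52, -1.78 to -1.27), Ndufb4 at 233 and 88.6 CPM (-1.39, -1.59 to -1.20) and Ndufa3 at 659.6 and 268 CPM (-1.30, -1.41 to -1.19). The assembly factor Ndufaf2 stood at 143 and 57.4 CPM (-1.31). Near the other end were Ndufv2, a core subunit that carries an iron-sulfur cluster, with 293 and 327 CPM (0.16, 0.06 to 0.26), and Atp5a1, the alpha subunit of complex V, with 469 and 464 CPM (-0.01, -0.10 to 0.07). Cox4i1 stood at 1362 and 969 CPM (-0.49), opposite to its order in microglia-like cells.

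**Figure D4:**
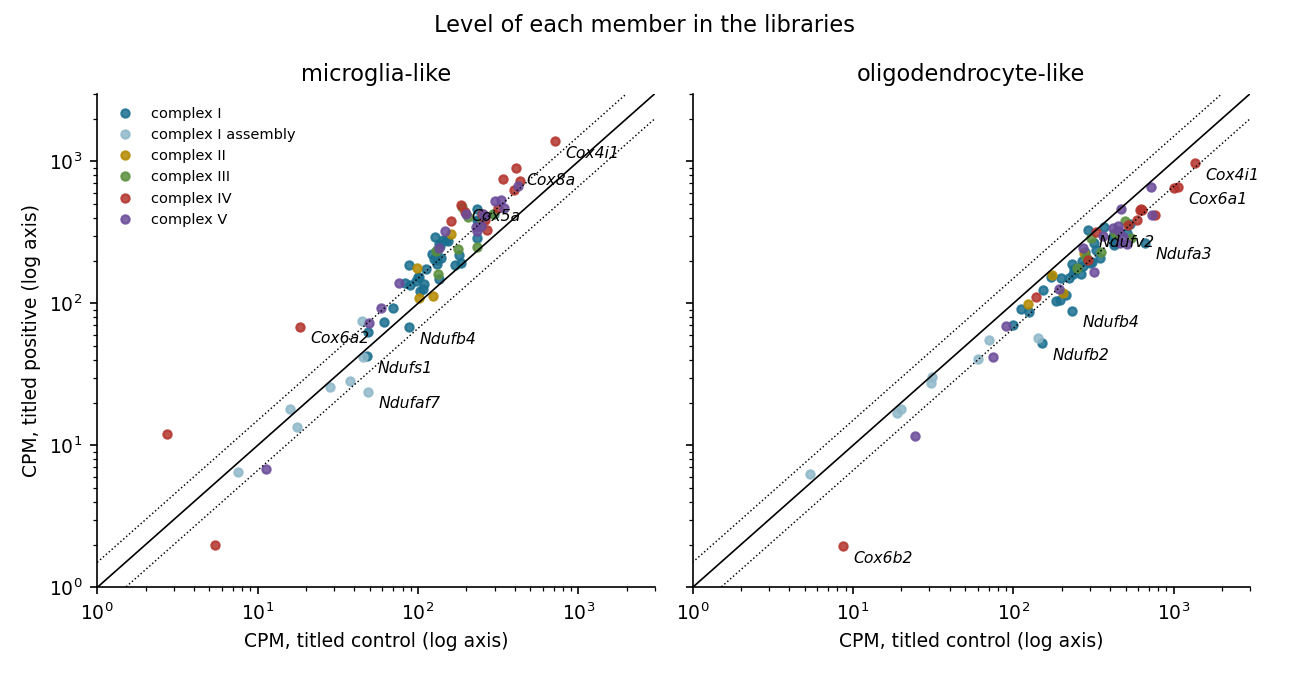
CPM of each member in the titled control (x, log axis) and titled positive library (y, log axis) in microglia-like (left) and oligodendrocyte-like cells (right), coloured by complex; the solid line marks equality and dotted lines 1.5-fold. Most points lie above the solid line on the left (76 of 87) and below it on the right (83 of 85).

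The catalytic core of complexes I and II was uneven in microglia-like cells. Among nuclear core subunits of complex I, Ndufs3 stood at 88.4 CPM (control) and 187 CPM (positive) (1.08), Ndufv2 at 125 and 206 CPM (0.72) and Ndufv1, the NADH-binding subunit, at 70.02 and 93.1 CPM (0.41). Ndufs8 followed with 0.29, while Ndufs7 (0.13) and Ndufs1 (-0.18) had intervals that included 0. In complex II, Sdhb, the iron-sulfur subunit, stood at 160.0 and 309 CPM (0.95) and Sdhd at 98.0 and 177 CPM (0.86). Sdha, the flavoprotein that oxidises succinate, stood at 123 and 113 CPM (-0.13), and Sdhc at 101 and 109.9 CPM (0.13), both with intervals that included 0. The 3 genes for the identical mature c subunit of complex V were all higher: Atp5g3 at 147 and 322 CPM (1.13), Atp5g1 at 75.9 and 139 CPM (0.87) and Atp5g2 at 49.2 and 72.6 CPM (0.56).

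The other 4 classes lay between these ends. In monocyte or macrophage-like cells the median log2 ratio of 88 members was 0.16 against -0.24 for all genes, 58 were higher and 30 lower, 11 were at least 1.5-fold higher (background 14.8%) and 7 at least 1.5-fold lower (background 31.6%). With classes assigned cell by cell from markers alone, 18 were at least 1.5-fold higher (background 20.1% by that assignment), and among cells with 4000 to 8000 UMIs, 2 were at least 1.5-fold lower (background 27.4% among those cells). Here too 342 of 351 cells (control) were in a cluster led by Cxcl13 and Cd72, and all 2251 (positive) in 3 others, the largest led by Chil3. Cox5a stood at 404 CPM (control) and 733 CPM (positive) (0.86, 0.76 to 0.96), Cox7a2l, known for joining complexes III and IV into supercomplexes, at 238 and 384 CPM (0.69), and Ndufaf2 at 44.6 and 22.6 CPM (-0.99). In endothelial cell-like cells the median of 84 members was -0.11 against -0.17, the interval of 46 members included 0, 2 were at least 1.5-fold higher (background 12%) and 11 at least 1.5-fold lower (background 27.4%). Both shares lay below the background, and the members as a group sat close to all genes. At the ends of the order there, Ndufb2 stood at 144 and 53.8 CPM (-1.41), Ndufb4 at 248 and 95.6 CPM (-1.36) and Cox5a at 587 and 753 CPM (0.36).

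In fibroblast-like cells 66 of 79 members were lower in the titled positive library, with a median log2 ratio of -0.36 against -0.13. Of the 70 cells of the titled positive library, 42 were in a cluster led by Col3a1 and Col1a1 that held no cell of the titled control library, whose cells were in clusters led by Nov (75 cells) and Dcn (21). Too few cells of the titled positive library were left without that cluster for a comparison. None was at least 1.5-fold higher (background 22.4%), and 25 were at least 1.5-fold lower, a share of 31.6% beside a background of 30.3%. Among the complexes the median was lowest for complex I, -0.51, and least low for complex III, -0.23. Ndufs7, a core subunit of complex I, stood at 383 and 159 CPM (-1.27), Uqcr11, a small subunit of complex III, at 877 and 378 CPM (-1.21) and Atp5j, coupling factor 6 of complex V, at 1029 and 448 CPM (-1.20). Uqcrc1, a core protein of complex III, had the highest ratio by that minimum, with 239 and 356 CPM (0.57, 0.25 to 0.90). In T cell-like cells the median of 79 members was 0.17 against 0.09, the interval of 51 members included 0, and 9 were at least 1.5-fold higher (background 25.3%) and 3 at least 1.5-fold lower (background 18.9%). By the mean of per-cell CPM, 19 were at least 1.5-fold higher (24.1%, beside a background of 29.3% by the same measure). Ndufv1 stood there at 74.2 CPM (19 UMIs) and 156 CPM (1.04, 0.39 to 1.84), and Ndufa3 at 484 and 259 CPM (-0.90, -1.20 to -0.59).

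Across the 6 classes no member was higher in the titled positive library in every class, and 2 of the 78 tested in all classes were lower in every class, Ndufb4 and Sdha. Of all genes tested, 45% were lower in T cell-like cells and 55.7 to 65.8% in the other classes. The share of all genes lower in every class was not computed. The ratio of Ndufb4 ran from -2.04 in fibroblast-like cells (343 and 82.7 CPM) to -0.37 in microglia-like cells, and none of its intervals included 0. The ratio of Sdha ran from -0.86 in fibroblast-like to -0.02 in T cell-like cells, with intervals including 0 in 4 classes. Ndufb2 (chr6:39592574-39603382), an accessory subunit of complex I, was lower in 5 of 6 classes, with an interval that included 0 in T cell-like cells, and higher in microglia-like cells (0.35). Its levels were alike in the titled positive library, from 47.3 to 63.6 CPM over all classes, and spread from 49.0 to 265 CPM in the titled control library. Ndufb4 behaved the same way, with 60.9 to 95.6 CPM in the classes of the titled positive and 88.4 to 343 CPM in those of the titled control library. Each class sum of a library shares its preparation and sequencing, so these 6 ratios are not independent of each other.

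Cox5a and Ndufb9 were the members most often among the 5 highest ratios. Cox5a was higher in the titled positive library in 5 classes, from 0.36 in endothelial and T cell-like to 1.42 in microglia-like cells, and stood at -0.06 in oligodendrocyte-like cells. Ndufb9 (chr15:58933756-58939488) had its highest level of all in carcinoma-like cells, with 1336 CPM, beside 291 to 634 CPM in the other classes of that library. The values of 604 to 634 CPM were those of neutrophil-like, T cell-like and NK cell-like cells, where the free RNA estimates were highest. Its ratio in T cell-like cells was 1.04 as deposited (297 and 615 CPM) and -0.46 once the free RNA estimate was subtracted. Subtraction lowered its ratio in microglia-like cells from 1.19 to 0.67.

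**Figure D5:**
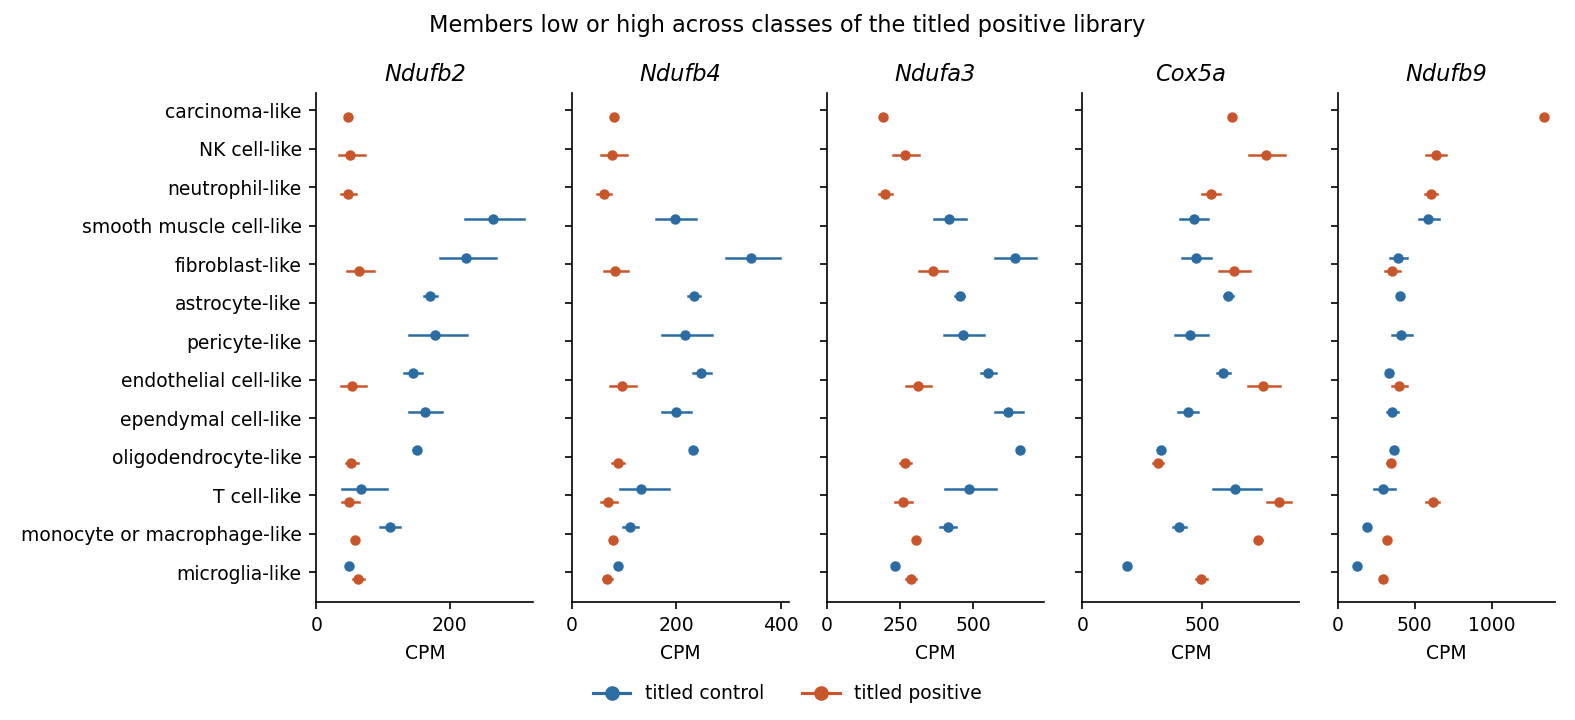
CPM (x axis, linear, from 0) of Ndufb2, Ndufb4, Ndufa3, Cox5a and Ndufb9 in each cell class (y axis) and library; points are class sums and lines exact Poisson 95% intervals. Ndufb2 and Ndufb4 lie in a narrow band in the titled positive library (47.3 to 63.6 and 60.9 to 95.6 CPM), and Ndufb9 is highest in carcinoma-like cells at 1336 CPM.

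Related lists were set beside the members. Of all genes tested, 34.2% were higher in the titled positive library in microglia-like and 35.8% in oligodendrocyte-like cells, with medians of -0.35 and -0.24. In microglia-like cells the 7 of 13 mitochondrially encoded subunits tested had a median log2 ratio of 0.05, far from the 0.61 of their nuclear partners. The tricarboxylic acid cycle and pyruvate dehydrogenase genes had -0.01 (7 of 15 higher), assembly factors outside the symbol rule -0.22 (12 of 33 higher), and regulators of mitochondrial gene expression such as Nrf1, Gabpa and Tfam -0.60 (1 of 13 higher), the last nearer to all genes than to the members. Glycolysis genes had 0.65 (12 of 15 higher), mitochondrial ribosomal proteins 0.33 (61 of 77) and cytosolic ribosomal proteins 0.54 (81 of 93). The members of the electron transport complexes thus lay near the ribosomal and glycolytic lists. In oligodendrocyte-like cells the mitochondrially encoded subunits had -0.36 (6 of 7 lower), mitochondrial ribosomal proteins -0.26 (63 of 77 lower), and glycolysis genes 0.25 (9 of 14 higher), opposite in sign to the members. Glycolysis genes were higher in all 15 cases in monocyte or macrophage-like cells (1.14, with 36.2% of all genes higher there), where the mitochondrially encoded subunits had -0.65, and the latter reached -0.998 in fibroblast-like cells.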

How the data were processed

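UMI counts per gene and barcode were used as deposited. Per the submitters' processing notes, the authors' counts came from Cell Ranger (no version) on GRCm38; how cells were called, which annotation release and which strand setting were used is not given in the sources used here. Barcodes under 200 genes or above 20% mitochondrial UMIs were left out (11 and 5), and the 5% with the highest Scrublet scores per library were removed as doublets (520 and 542). Leiden clustering at resolution 1 (scanpy 1.11.5, igraph implementation) used 30 principal components, 15 neighbours and 2000 variable genes without the members. Larger clusters that matched several classes or none were clustered again at resolution 0.6. All pericyte-like cells and nearly all oligodendrocyte-like cells of the titled positive library came from that second step. Thresholds for naming clusters from markers were set after the clusters were seen, and 489 and 389 cells of mixed clusters were left out. Among the latter were clusters of 172 and 167 cells with the highest mean log2 marker ratio for oligodendrocyte (6.46 and 6.10, next class 0.54 and 0.82). A marker of another class, and none of their own, was among their 10 leading genes. Their members summed to 21597 and 18552 CPM, beside 19873 CPM in the oligodendrocyte-like class of that library. Among the 489 cells were clusters of 37 and 77 cells with the highest ratio for pericyte (6.15 and 6.90). The next class was endothelial cell (5.58 and 5.60). Members there summed to 36218 and 36605 CPM, beside 33130 CPM in the pericyte-like class of the titled control library.

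UMIs were summed per class and library, which for a class compared gave 256070 to 24313420 UMIs, and scaled to CPM with exact Poisson 95% intervals. Log2 ratios (pseudocount 0.5) carry conditional exact binomial intervals from scipy 1.17.1. Members were tested in a class with at least 50 UMIs over both libraries, where "tested" means compared, and a 1.5-fold rule of size replaced a test, since 1 library per group allows none. A share of a pair's UMIs has an exact Clopper-Pearson interval. All intervals cover counting error only.

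Named are the 5 highest and 5 lowest ratios per class among members reaching 100 UMIs in either library, described in part, the 8 members with the sharpest class pattern, complex II, core complex I subunits and isoforms. Some values covered by this rule are not reported here. The marker and gene lists and the members were chosen with earlier results of these data known. The scripts were tested on simulated data. Reads shared between a member and its pseudogenes or overlapping genes could have been assigned to either.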

Additional observations from a re-analysis of the deposited data

Results flagged for a closer look

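The median log2 ratio of the members, titled positive over titled control, was 0.61 in microglia-like cells and -0.50 in oligodendrocyte-like cells. The signs were opposite in the 2 classes, which is why both values are listed, and with 1 library per group the difference between them was not tested. Microglia-like cells of the libraries also differed in the summed level of their own markers (32132 and 5050.1 CPM) and of monocyte or macrophage markers (661 and 3281 CPM), whose part in the value was not tested. The oligodendrocyte-like cells differed likewise in their own markers (110017 and 53738 CPM), and in both classes nearly all cells of each library lay in clusters of that library.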

How the results depend on the processing

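The median log2 ratio of the members kept its sign in all 6 classes under each alternative run: clusters named cell by cell, finer clustering, no doublet removal, free RNA subtracted, per-cell means, other denominators, depth, UMI or mitochondrial limits, pseudocount or member set. It ran from 0.53 to 0.69 in microglia-like, -0.64 to -0.44 in oligodendrocyte-like, 0.14 to 0.26 in monocyte or macrophage-like, -0.13 to -0.09 in endothelial cell-like, -0.44 to -0.32 in fibroblast-like and 0.12 to 0.22 in T cell-like cells. At 2-fold, with the share of all genes tested in brackets, 12 of 87 members were higher in microglia-like cells (9.66%), 1 in endothelial cell-like (5.25%), 1 in monocyte or macrophage-like (9.24%) and 2 in T cell-like cells (14.1%), and 6 were lower in oligodendrocyte-like (16.3%), 2 in endothelial cell-like (14.4%), 3 in monocyte or macrophage-like (16.3%), 7 in fibroblast-like (17.4%) and 0 in T cell-like cells (7.91%). Only the first of these member shares (13.8%) lay above that of all genes. The log2 ratio of member sums, microglia-like over oligodendrocyte-like, was -1.02 by per-cell means, -1.13 with free RNA subtracted, -0.93 with cells named by their own markers and -0.94 at 4000 to 8000 UMIs (-0.99 as reported). Astrocyte-like over oligodendrocyte-like it was 0.27 with free RNA subtracted, 0.24 by own markers and 0.22 at 4000 to 8000 UMIs (0.25). Carcinoma-like over monocyte or macrophage-like it was 0.27 by per-cell means, 0.34 with free RNA subtracted and 0.24 at 4000 to 8000 UMIs (0.29). Smooth muscle cell-like over endothelial cell-like it was 0.52 by per-cell means, 0.51 with free RNA subtracted and 0.42 by own markers (0.47). With Ndufa4 and Ndufa4l2 in complex I, complexes I and IV summed in microglia-like cells to 5103 and 3692 CPM (control) and 7793 and 7010.3 CPM (positive), and in oligodendrocyte-like cells to 11024 and 7345 CPM (control) and 7444 and 5050.2 CPM (positive). Of 500 alternatives for 60 named values, 473 stayed within the counting interval, 25 moved beyond it with the same sign and 2 reversed: Ndufaf7 in monocyte or macrophage-like cells by own markers (0.17) and Ndufb9 in T cell-like cells with free RNA subtracted (-0.46). The cause was not tested. No value came from the 4000 to 8000 UMI limit in endothelial cell-like, fibroblast-like and T cell-like cells or for smooth muscle cell-like cells, nor from own markers in fibroblast-like cells, for want of 50 cells. No paired analysis was possible because each group is 1 library.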
